A study of Mus musculus with 12 samples.

Results

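The genes described here encode 10 inflammatory cytokines of the IL-1, TNF and IL-6 families and cytokines that act beside them: Il1a, Il1b, Il1rn, Il18, Tnf, Il6, Il10, Il15, Osm and Lif. They were taken by symbol from a count table of 32544 genes, in which all 10 had a row. RNA had been sequenced from bone marrow-derived macrophages (BMDM) and from NIH/3T3 cells, an established mouse fibroblast line, in 4 groups of 3 libraries. BMDM labelled WT and BMDM labelled PHD2cko had been grown from bone marrow with L929-conditioned medium and were taken 24 h after seeding. 3T3 cells were starved of serum and then kept for 72 h in medium that BMDM of either label had conditioned for 24 h. PHD2cko stands for a conditional deletion of Egln1, the gene of the oxygen sensor PHD2, by Cre under the lysozyme M promoter, which is active in myeloid cells. The WT mice carried the same Cre, and both kinds of mice lacked the LDL receptor, so that both BMDM groups, and the BMDM that conditioned the media, share Cre and the absent receptor. The protocol names conditioning in normal oxygen or in hypoxia, and the sources used here do not say which medium the sequenced 3T3 cells received. Nor do the labels say that replicates came from separate animals or cultures, so that p-values measure the spread between these libraries, which may be technical.

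IL-1α and IL-1β signal through the same receptor, IL1R1, and the product of Il1rn, the IL-1 receptor antagonist, occupies that receptor without activating it. IL-1β and IL-18 are made as inactive precursors that caspase-1 cleaves in the inflammasome. TNF acts through TNFR1 and TNFR2, and like IL-1 it activates NF-κB in fibroblasts. IL-6, oncostatin M (Osm) and leukaemia inhibitory factor (Lif) share the signalling chain gp130, encoded by Il6st. IL-10 restrains macrophage activation, and IL-15 sustains natural killer cells and memory T cells. Macrophages are a main source of IL-1β, TNF, IL-10 and oncostatin M, and fibroblasts carry the receptors for IL-1, TNF and oncostatin M.

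Total counts ran from 15516465 to 25199770 per library. Replicate 1 of 3T3 cells in WT medium stood apart, since its chi-square over genes, divided by the degrees of freedom, was 24.8 and 26.9 against the other replicates of its group and between 1.99 and 8.42 for all other replicate pairs. Egln1 itself did not fall with the PHD2cko label in BMDM. It stood at 55.4 ± 0.574 CPM, counts scaled to library size (mean ± SD, n = 3), in WT and 69.6 ± 1.77 in PHD2cko, and was called higher in the libraries labelled PHD2cko by edgeR (log2 fold change 0.33, adjusted p = 0.00203). A count per gene cannot show a deletion of part of the gene, and directions are therefore given by label. All 27 macrophage markers of a fixed list were above 1 CPM in both BMDM groups, and all 14 fibroblast markers were above 1 CPM in both 3T3 groups.

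The sequences upstream of the transcription start are shown for Tnf and Il1rn, the genes called in 3T3 cells, and for Il6, Lif and Il1a, in which motifs of factors downstream of IL-1 and TNF were found. They come from RefSeq on GRCm38.p6, whose table held 9 starts for 7 of the 10 genes. Capitals mark matches, on either strand, to the NF-κB consensus, to the AP-1 motif TGACTCA or to the HIF core ACGTG or GCGTG, all searched in the 250 bases before each start.
Tnf, chr17:35202008-35202067, minus strand, 60 to 1 bases before the start: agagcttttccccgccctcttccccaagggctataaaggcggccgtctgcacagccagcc
Il1rn, chr2:24336700-24336759, plus strand, 160 to 101 bases before the start: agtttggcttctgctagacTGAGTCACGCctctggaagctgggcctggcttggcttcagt
Il6, chr5:30013054-30013113, plus strand, 60 to 1 bases before the start: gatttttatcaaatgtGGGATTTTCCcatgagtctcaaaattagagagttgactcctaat
Lif, chr11:4257328-4257407, plus strand, 240 to 161 bases before the start: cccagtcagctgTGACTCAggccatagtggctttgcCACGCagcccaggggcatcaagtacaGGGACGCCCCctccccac
Il1a, chr2:129309973-129310032, minus strand, 60 to 1 bases before the start: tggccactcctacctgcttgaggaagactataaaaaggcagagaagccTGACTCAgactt

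In Il1rn the AP-1 match ends inside a HIF core match on the opposite strand, so the capitals run together. Its window belongs to the most upstream of 3 starts. The AP-1 motif was found upstream of Il1a, Il1rn, Il6 and Lif, and in 4.46% of all 32851 promoters of the table. The NF-κB consensus was found upstream of Il6 and Lif and in 7.25% of all promoters, and the HIF core upstream of Il1rn and Lif and in 38.6%. None of the 3 motifs was found in the 250 bases upstream of Tnf, which says only that these letters are not in this window.

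Most of the cytokines were expressed mainly by one of the cell types, and Il15 and Il18 by both. Scaled to exon length, the WT BMDM ranked Il15 first at 10.6 ± 0.596 CPM per kb (SD, n = 3), followed by Tnf at 5.54 ± 0.249, Il18 at 4.89 ± 0.140, Osm at 2.32 ± 0.283, Il10 at 2.02 ± 0.0298, Il1b at 1.24 ± 0.483, Il1rn at 1.14 ± 0.181 and Il1a at 0.339 ± 0.135. The libraries of Osm and Il10 overlapped, as did those of Il1b and Il1rn, and the other neighbours did not. Exon length here joins all annotated exons of a gene, also those of transcripts that may not be expressed. By CPM alone, Il1rn at 6.33 stood above Osm at 5.28, Il18 at 5.04, Il10 at 2.65 and Il1b at 2.36. In 3T3 cells kept in WT medium, Il18 led at 8.14 ± 0.895 CPM per kb, before Il15 at 1.65 ± 0.214, Lif at 0.481 ± 0.0403 and Il6 at 0.150 ± 0.0884. Tnf, Il1b, Il10 and Osm had 0 counts in all 3 libraries of 3T3 cells in WT medium, where 3 counts, the limit that a count of 0 allows, correspond to 0.109 to 0.159 CPM.

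Genes with at least 10-fold higher levels in WT BMDM than in 3T3 cells in WT medium are called the macrophage set here, and Tnf, Il1b, Il1rn, Il10 and Osm belong to it. Between WT BMDM and 3T3 cells in WT medium, all 9 tested cytokines were called at an adjusted p under 0.05, in a comparison in which 85.3% of all tested genes were called. Il1a lost this call, leaving 8, without replicate 2 or 3 of 3T3 cells in WT medium and without replicate 1 of WT BMDM. In BMDM 7 were higher, at least 57.3-fold for Tnf, at least 33.3-fold for Osm, at least 16.7-fold for Il10 and at least 14.9-fold for Il1b. For Il15 the log2 difference was 2.70 ± 0.115 (SE), for Il1a 3.02 ± 1.07 and for Il1rn 6.56 ± 0.600. Il18 was lower in BMDM, by edgeR's log2 difference of -0.73 ± 0.116 (adjusted p = 5.47e-05). Lif was the other one that was lower there, with 3 counts over the BMDM libraries against 137 over the 3T3 libraries, a ratio of 33.4 with an exact 95% counting interval of 11.2 to 164. Il6 did not pass the filter on low counts and had 2 counts in WT BMDM against 23 in 3T3 cells, a ratio of 8.41 with a counting interval of 2.08 to 73.6.

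**Figure D1:**
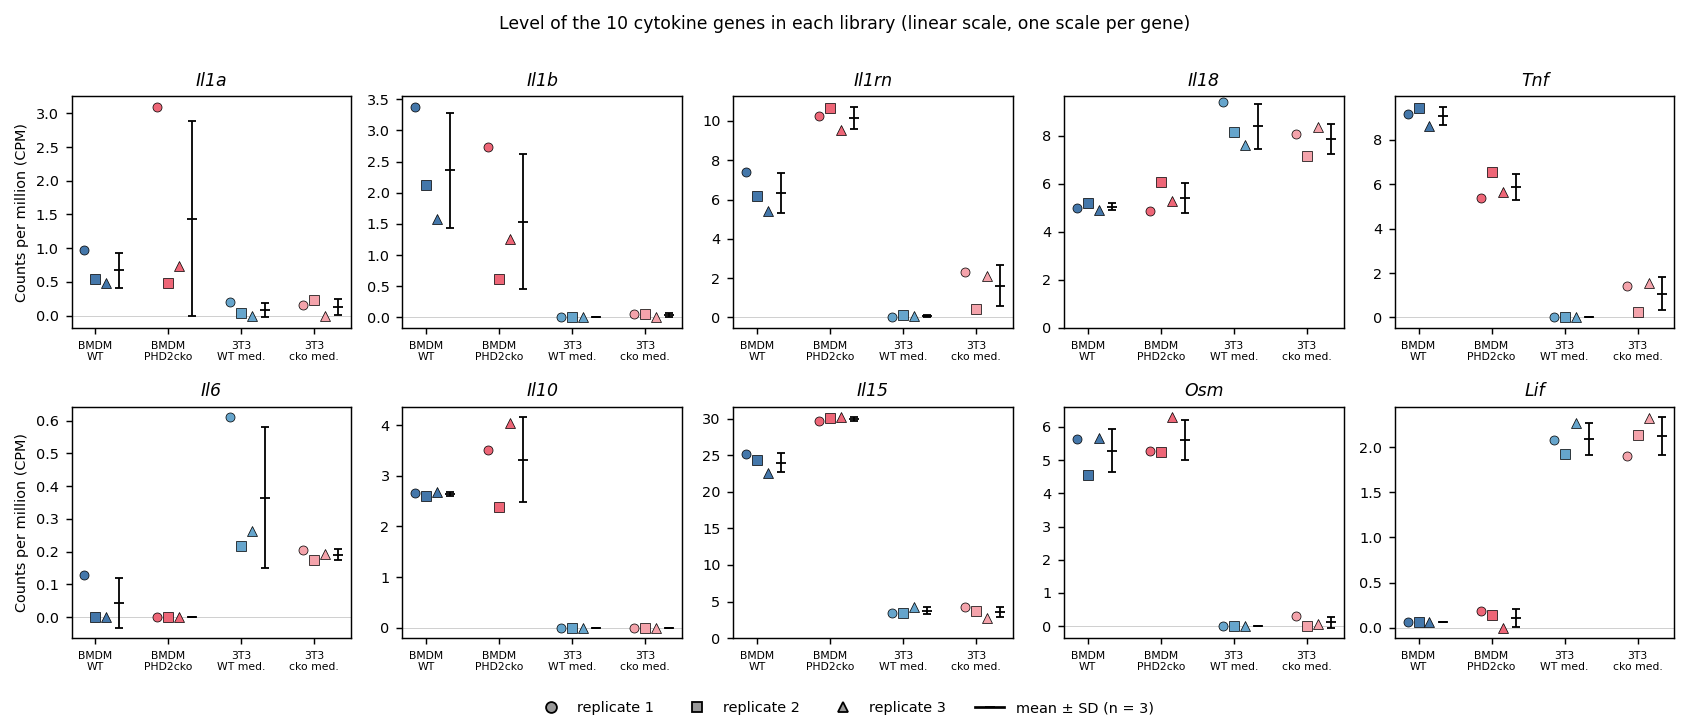
CPM of the 10 cytokine genes on linear axes, 1 panel per gene with its own scale; each symbol is a library, its shape the replicate number, and the bar beside each group is the mean with its SD (n = 3). Tnf and Il1rn lie at or near 0 in 3T3 cells in WT medium and reach 1.07 and 1.62 CPM on average in PHD2cko medium, with replicate 2 the lowest, while Il18, Il15 and Lif overlap between both 3T3 groups.

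The first question was whether the cytokine genes differed between BMDM labelled PHD2cko and WT. None of the 9 tested passed an adjusted p of 0.05 in the edgeR fit of all 12 libraries. In that comparison 6.73% of all genes did, 3.38% higher and 3.35% lower. At an unadjusted p under 0.05 there were 2, Il1rn and Il15, beside 19% of all tested genes. DESeq2 and limma-voom each called 1, Il15, beside 8.15% and 7.46% of all genes. With the 6 BMDM libraries alone, edgeR called Il15, Il1rn and Tnf, beside 20.6% of all genes of that fit. In 3 of the 9 the groups did not overlap, Il1rn and Il15 higher and Tnf lower in PHD2cko, a share close to the 31.9% of all tested genes with groups that did not overlap. In bulk RNA, fewer cells of a type and less RNA per cell cannot be told apart.

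Among the IL-1 family genes, Il1rn had 114, 102 and 89 counts in the WT replicates and 169, 156 and 182 in the PHD2cko replicates. All 3 PHD2cko libraries were above all WT libraries, at 10.2 ± 0.558 CPM against 6.33 ± 1.00. The log2 fold change of this antagonist gene was 0.68 ± 0.297 (SE), with an unadjusted p of 0.0402 and an adjusted p of 0.232 in edgeR. The agonist Il1b had 52, 35 and 26 counts in WT and 45, 9 and 24 in PHD2cko, groups that overlapped, with a log2 fold change of -0.60 ± 0.466 that edgeR did not call (adjusted p = 0.584). Il1a had 15, 9 and 8 counts in WT and 51, 7 and 14 in PHD2cko. For both genes replicate 1 was the highest library of each label, and for Il1a replicate 1 of PHD2cko stood apart from all others. The log2 fold change of Il1a was 1.11 ± 0.694 and turned to -0.10 without that library, and that of Il1b went to -1.29, neither called by edgeR. Il18, with 77, 86 and 81 counts in WT and 80, 89 and 101 in PHD2cko, overlapped between the groups, and the 95% interval of its log2 fold change was -0.17 to 0.37. Il1a, Il1b and Il18 overlap genes on the other strand (Gm14023, Il1bos, and Bco2 and Tex12), and use of strand in the counting is not given in the sources used here.

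Tnf had 141, 156 and 142 counts in WT and 89, 96 and 108 in PHD2cko. The highest PHD2cko library was below the lowest WT library, with means of 5.88 ± 0.605 and 9.08 ± 0.407 CPM. Its log2 fold change of -0.63 ± 0.289 had an unadjusted p of 0.0530 and an adjusted p of 0.271 in edgeR. Neither Tnf nor Il1rn passed the threshold in the fit of all 12 libraries. That fit takes the spread of a gene from BMDM and 3T3 libraries together. In PHD2cko medium, the 3T3 libraries had 28, 4 and 32 counts of Tnf and 45, 7 and 44 of Il1rn. The p-values given here for BMDM therefore do not measure the spread between BMDM libraries alone. The weight of the 3T3 libraries in them was not tested.

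Il15, the best counted of these genes, had the smallest standard error, with 387, 403 and 370 counts in WT and 488, 440 and 576 in PHD2cko. The PHD2cko libraries lay at 30.0 ± 0.315 CPM and the WT libraries at 24.0 ± 1.35, without overlap. The log2 fold change was 0.32 ± 0.0929, with an unadjusted p of 0.00462 and an adjusted p of 0.0620 in edgeR. Il15 lies on chromosome 8 (82331632 to 82403222), as does Egln1 (124908587 to 124949324), and a bearing of this on Il15 was not tested. In a fit of the 6 BMDM libraries alone, edgeR called Il15 (adjusted p = 0.000694), Il1rn (0.00106) and Tnf (0.00118), with log2 fold changes of 0.32, 0.68 and -0.63, in a fit that called 20.6% of all its genes. With all 12 libraries Il15 was also called by DESeq2 (adjusted p = 0.0356) and limma-voom (adjusted p = 0.0146), and Il1rn and Tnf by neither.

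Of the other cytokines in BMDM, Il10 had 41, 43 and 44 counts in WT and 58, 35 and 77 in PHD2cko, with the lowest PHD2cko library under all of WT (log2 fold change 0.33 ± 0.238). Osm, the gp130 ligand of macrophages, had 87, 75 and 93 counts in WT and 87, 77 and 120 in PHD2cko and overlapped (0.09 ± 0.269). Il6 and Lif had at most 3 counts in any BMDM library. The median log2 fold change over the 8 cytokines with counts above 3 in this comparison was 0.21, beside 0.00022 over all tested genes.

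**Figure D2:**
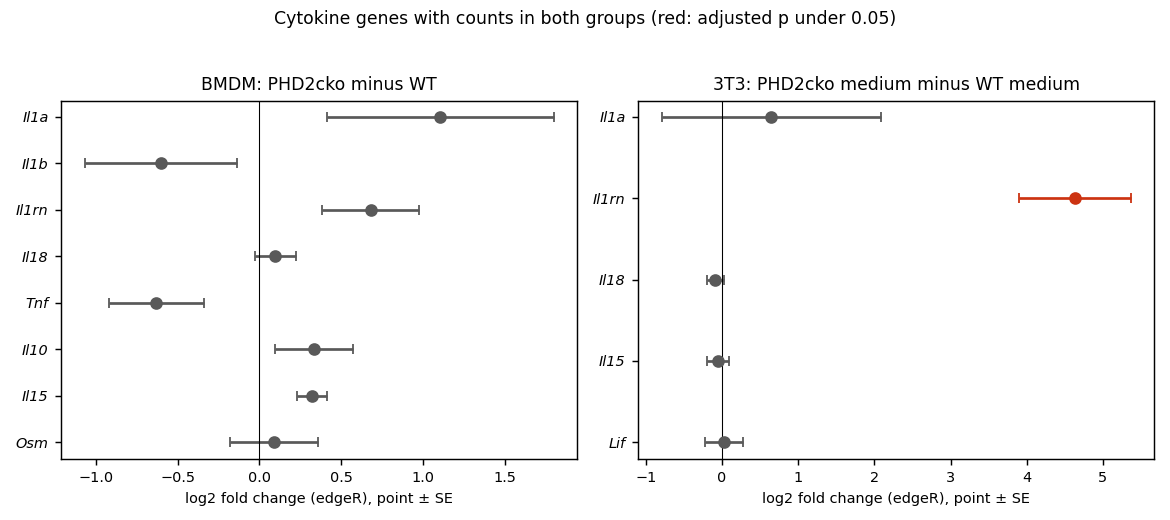
Log2 fold change with its SE from edgeR for the tested cytokine genes with counts in both groups and over 3 counts in at least 1 library, BMDM on the left and 3T3 cells on the right, with called genes in red. Il1rn in 3T3 cells, at 4.63, is the one called point, and Tnf in 3T3 cells is not drawn because its control libraries were at 0.

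The second question was whether the cytokine genes differed between 3T3 cells kept in medium from PHD2cko and from WT macrophages. Tnf and Il1rn, both genes of the macrophage set, were called higher in 3T3 libraries of PHD2cko medium, 2 of 9 tested, in a comparison in which 15.7% of all genes were called, 8.93% higher and 6.75% lower. The cytokine genes that 3T3 cells themselves expressed, Il18, Lif and Il15, were not called. The median log2 fold change over the 5 tested cytokines with counts in both 3T3 groups and over 3 counts in at least 1 library was 0.03, beside -0.0046 over all tested genes.

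Tnf had 0, 0 and 0 counts in WT medium and 28, 4 and 32 in PHD2cko medium. Every library of PHD2cko medium was above every library of WT medium, and replicate 2 was the lowest of the 3. The mean of 1.07 ± 0.731 CPM (n = 3) was at least 6.77-fold higher than in WT medium, taken at the floor of 3 counts per library, with an adjusted p of 0.00174 in edgeR. Il1rn had 0, 3 and 1 counts in WT medium and 45, 7 and 44 in PHD2cko medium, again without overlap and again with replicate 2 the lowest. Its means were 0.0539 ± 0.0544 and 1.62 ± 1.05 CPM, a log2 fold change of 4.63 ± 0.738 in edgeR (adjusted p = 0.00115) that became 5.65 without replicate 2 of WT medium. Without replicate 1 of WT medium, the library that stood apart, both were still called (adjusted p = 0.00258 for Tnf and 0.00287 for Il1rn, edgeR). Like 31.9% of all tested genes, both had groups that did not overlap. Both genes entered the test through the BMDM libraries. With the 6 libraries of 3T3 cells alone, or with a demand of 10 counts in every library of the comparison, neither passed the filter and none of the cytokines was called, whereas without a filter both were called (adjusted p = 0.000123 for Tnf and 9.57e-05 for Il1rn, edgeR), beside 8.57% of all genes.

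The macrophage-derived ligands Osm, Il1b and Il10 did not follow at this depth. Osm had 0, 0 and 0 counts in WT medium and 6, 0 and 1 in PHD2cko medium (edgeR, adjusted p = 0.0805). Il1b had 0, 0 and 0 counts and 1, 1 and 0. Il10 had 0 counts in all 6 libraries of 3T3 cells, which allows at most 0.174 CPM in any library of PHD2cko medium. DESeq2, which called 17.2% of all genes in this comparison, called Osm (adjusted p = 0.0234), as did edgeR without replicate 2 of PHD2cko medium (adjusted p = 0.0284), while limma-voom, which called 17% of all genes, did not (adjusted p = 0.120).

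Il18, the most abundant of these genes per kb in 3T3 cells, had 185, 225 and 144 counts in WT medium and 157, 124 and 173 in PHD2cko medium. The levels of 8.39 ± 0.923 and 7.87 ± 0.625 CPM overlapped, with a 95% interval of the log2 fold change of -0.32 to 0.15. Lif had 41, 53 and 43 counts and 37, 37 and 48, with an interval of -0.52 to 0.57. Il15 had 67, 96 and 81 counts and 82, 65 and 57, with an interval of -0.37 to 0.26. None of these intervals reached a 2-fold change.

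Il6 had 12, 6 and 5 counts in WT medium and 4, 3 and 4 in PHD2cko medium. The groups did not overlap, at 0.364 ± 0.215 and 0.191 ± 0.0162 CPM, the gene was too low to pass the filter, and a fit without a filter did not call it. Il1a had 4, 1 and 0 counts and 3, 4 and 0, which overlapped (edgeR, adjusted p = 0.811).

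Markers of macrophages moved with Tnf and Il1rn in the same 3T3 libraries. All 27 were detected, and their summed level was 42.2 to 44.0 CPM in WT medium and 248.5 to 1051 CPM in PHD2cko medium, against 44280 to 50118 CPM in BMDM, all per plain library total. Of these markers 26 were called higher in PHD2cko medium. As a share of the BMDM of the same label, the sum was 0.0854%, 0.0890% and 0.0865% in the replicates of WT medium and 2.34%, 0.553% and 2.10% in those of PHD2cko medium. Replicate 2 was the lowest for the markers as for both cytokines.

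Tnf and Il1rn stood above that share. In PHD2cko medium, Tnf reached 30.2%, 4.82% and 32.3% of its BMDM level in replicates 1, 2 and 3, and Il1rn 28.1%, 4.88% and 25.7%. The highest marker was Cd14 at 15.6% in replicate 1, Aif1 at 5.93% in replicate 2 and Cd14 at 12.6% in replicate 3. Both cytokines were thus above all 27 markers in replicates 1 and 3 and below Aif1 in replicate 2. Aif1 already stood at 2.39%, 2.88% and 4.81% of BMDM in the replicates of WT medium. The next marker in replicate 2 of PHD2cko medium, Cx3cr1 at 4.64%, was below both cytokines. The median over the 27 markers was higher than the summed share, at 3.45%, 0.781% and 3.15% in replicates 1, 2 and 3. A subtraction at that median was not tested. The summed marker share alone would give 3.75, 0.794 and 3.59 counts of Il1rn, where 45, 7 and 44 were counted, and 2.17, 0.460 and 2.08 counts of Tnf, where 28, 4 and 32 were counted. For Osm it would give 2.07, 0.438 and 1.98 counts, and for Il10 at most 1.22 in any library.

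Among 475 tested genes with at least 5 CPM in PHD2cko BMDM and at most 1% of that level in 3T3 cells in WT medium, the median level in PHD2cko medium was 2.94%, 0.770% and 2.63% of BMDM in replicates 1, 2 and 3. Tnf ranked 5, 12 and 2 of these 475 and Il1rn 7, 9 and 4, whereas Osm ranked 64, 433 and 397. With the macrophage share times the BMDM profile subtracted from each 3T3 library, Tnf (adjusted p = 0.00188) and Il1rn (log2 fold change 4.52, adjusted p = 0.00176) were still called by edgeR, beside 13.2% of all tested genes. The subtraction takes macrophage RNA to have the composition of the BMDM libraries. RNA from macrophages with another composition cannot be told apart from RNA made by the 3T3 cells.

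**Figure D3:**
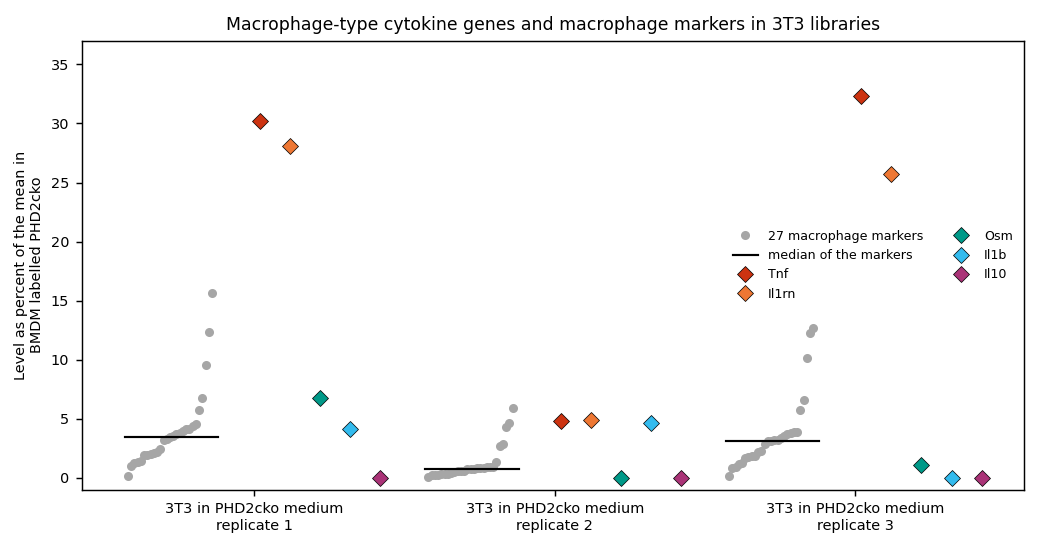
Level in each 3T3 library of PHD2cko medium as a percent of the mean level in BMDM labelled PHD2cko, for the 27 macrophage markers (grey, with their median as a bar) and for 5 cytokine genes of the macrophage set (diamonds). Tnf and Il1rn stand above all markers in replicates 1 and 3 and within the range of the markers in replicate 2, and Il10 is at 0 in all 3.

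The effects of the 2 comparisons differed for the same genes. By a test of the difference itself in edgeR, the 3T3 effect exceeded the BMDM effect for Il1rn by 3.95 ± 0.852 on the log2 scale (adjusted p = 0.00893), and for Tnf the difference was called as well (adjusted p = 0.00140), 2 of 9 tested in a comparison with 12.3% of all genes called. The Tnf log2 fold change of -0.63 in BMDM had itself not been called. Tnf and Il1rn entered this test through the BMDM libraries, and macrophage markers were also higher in 3T3 libraries of PHD2cko medium. The test cannot tell RNA of macrophages from RNA made by the 3T3 cells. For Il15, with 0.32 in BMDM and -0.06 in 3T3 cells, neither of them called, the difference of -0.38 ± 0.173 was not called by edgeR (adjusted p = 0.197).

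Among the lists of receptors, processing enzymes, signalling genes and response genes around these cytokines, the calls in BMDM stand beside 3.38% of all tested genes called higher and 3.35% called lower. Of 16 tested genes of the IL-6 family receptors and signalling, 3 were lower in PHD2cko and none higher. They were Socs3, a feedback inhibitor of gp130 signalling, at 53.2 ± 3.11 and 36.0 ± 1.24 CPM (log2 fold change -0.56, adjusted p = 0.000670, edgeR), the LIF receptor Lifr (-0.47), and Socs1 (-0.89). Socs1 was at 1.49 and 0.817 CPM on average. Of 15 genes of TNF receptors and signalling, 3 were lower, Tnfaip2, Birc3 and Cflar, by log2 fold changes of -0.35, -0.30 and -0.25. Of 6 fits that each left out 1 library, Cflar lost its call in 6, Socs1 in 5 and Tnfaip2 in 4. Of 13 inflammasome genes, Mefv, which encodes pyrin, was higher (0.67) and Gsdmd, the pore-forming gasdermin D, lower (-0.26), the latter losing its call in 2 of 6 such fits. The 7 receptors and binding proteins of the IL-1 family, the 12 genes of IL-1 and TLR signalling, and the 5 receptors of IL-10 and IL-15 held no call. List medians ran from -0.18 to 0.03. Of 16 response genes of oncostatin M, LIF and IL-6, Fos was higher (0.65), and Socs3 and Lifr lower. Of 15 response genes of IL-1 and TNF, the collagenase gene Mmp13 was higher (0.31) and lost its call in 4 of 6 fits with 1 library left out.

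In 3T3 cells, most of the larger changes in the lists were in genes of the macrophage set. The counts stand beside 8.93% of all tested genes called higher and 6.75% called lower. Of 13 inflammasome genes 6 were higher in PHD2cko medium and none lower, and 4 of these 6 had at least 10-fold higher levels in WT BMDM than in 3T3 cells. Nlrp3, the sensor of the inflammasome, had 0, 1 and 3 counts in WT medium and 79, 21 and 85 in PHD2cko medium, with replicate 2 again the lowest of that medium. Casp1 and its adaptor Pycard were higher by 3.12 and 1.58 on the log2 scale, and Pycard lost its call once the macrophage share was subtracted (adjusted p = 0.134, edgeR), while Nlrp3 and Casp1 did not. Of 5 receptors of IL-10 and IL-15, 3 were higher, Il10ra (0.0297 to 2.68 CPM), Il2rg (log2 fold change 4.36) and Il10rb (0.71), all of the macrophage set, and Il10ra and Il10rb lost their call after the same subtraction.

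Of 15 tested response genes of IL-1 and TNF, 7 were higher and 2 lower, 4 of these 7 in the macrophage set, and the median of the 15 log2 fold changes was 0.61. Icam1, an adhesion molecule, went from 0.0411 to 1.69 CPM. It had 53, 7 and 40 counts in PHD2cko medium, where the macrophage share alone would give 42.7, 9.04 and 40.9, and it lost its call once that share was subtracted (adjusted p = 0.124, edgeR). Mmp13, a collagenase, had 4, 2 and 2 counts in PHD2cko medium, fewer than the 13.5, 2.86 and 12.9 of the macrophage share, and was not called after the subtraction. Cxcl2, a neutrophil chemokine, went from 0 to 0.170 CPM and kept its call (adjusted p = 0.0442, edgeR), and Cxcl5, a chemokine absent from WT BMDM, fell by 0.86 on the log2 scale. Of 6 fits that each left out 1 library, Mmp13 lost its call in 5, and Cxcl2 and Cxcl5 in 4 each. The NF-κB inhibitor Nfkbia rose from 15.6 ± 1.13 to 25.7 ± 5.71 CPM (0.73, adjusted p = 0.00169, edgeR). Fos and Junb, early response genes of many cytokines, were higher by 0.84 and 0.58, and Cebpd was lower (-0.46), while the other 13 of 16 tested response genes of oncostatin M, LIF and IL-6 were not called. Fos and Cebpd each lost their call in 2 of 6 fits with 1 library left out, and the log2 fold change of Cebpd became -0.26 without replicate 1 of WT medium.

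Il33, an IL-1 family ligand of stromal cells with 0 counts in all BMDM libraries, was higher in PHD2cko medium. It had 72, 62 and 52 counts in WT medium and 98, 132 and 129 in PHD2cko medium, at 2.89 ± 0.717 and 6.31 ± 1.30 CPM. The groups did not overlap and replicate 2 was the highest of PHD2cko medium, unlike for Tnf, Il1rn and the macrophage markers. The log2 fold change was 1.13 ± 0.239 (adjusted p = 0.0147, edgeR, and 0.0555 without replicate 3 of PHD2cko medium). Il1rl1, the receptor of IL-33, fell from 784 ± 24.8 to 609 ± 42.8 CPM (-0.37, adjusted p = 0.00578, edgeR), the one call among 7 tested receptors and binding proteins of the IL-1 family. Among other ligands of the IL-6 family, Ebi3 of the macrophage set was called higher, with 0, 2 and 0 counts in WT medium and 28, 4 and 25 in PHD2cko medium, and the other 6 tested were not called.

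The calls among the signalling genes in 3T3 cells are given beside the 15.7% of all tested genes called in either direction. Of the TNF receptors and signalling genes, 3 of 15 were higher, Traf1 (0.0297 to 0.443 CPM), Tnfaip3 (log2 fold change 0.73) and the TNF-releasing protease Adam17 (0.22), and Tnfrsf1b was lower (-0.22). With 1 library left out in turn, Tnfaip3 and Tnfrsf1b lost their call in 5 of 6 fits and Adam17 in 3. Of the IL-6 family receptors, Il6ra was higher (0.22) and lost its call in 2 of these 6 fits. Of 12 genes of IL-1 and TLR signalling, 3 were higher, Nfkbia, Irak3 (0.68) and Tab2 (0.17), and Tab2 lost its call in 3 of the 6 fits with 1 library left out. With the macrophage share subtracted, Traf1, Tnfaip3, Il6ra and Irak3 were no longer called (edgeR, adjusted p = 0.162, 0.0867, 0.246 and 0.264). Among 14 genes of cytokine mRNA decay, which include proteins that destabilise Tnf and Il6 transcripts, Zc3h12a (-0.40) and Zfp36l1 (-0.23) were lower and Hnrnpd (0.16) higher in 3T3 cells, and Hnrnpd lost its call in 4 and Zc3h12a in 2 of the 6 fits with 1 library left out. In BMDM the one call of that list was Zfp36l1, which was higher (0.23) and lost its call in 2 of 6 such fits.

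**Figure D4:**
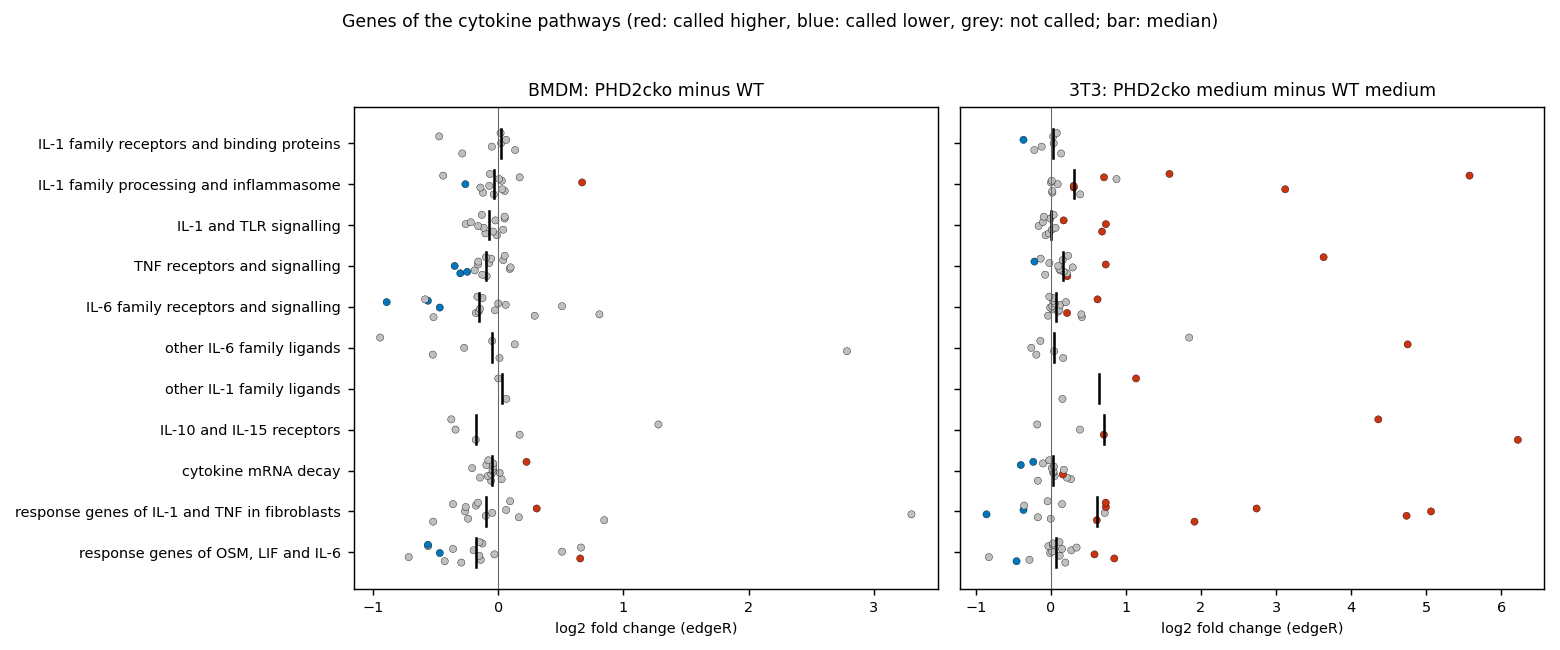
Log2 fold change of each tested gene of the 11 cytokine pathway lists in BMDM on the left and 3T3 cells on the right, on axes of different range, with called genes in red (higher) and blue (lower), others in grey and the median of each list as a bar. In 3T3 cells the points beyond 3 are genes of the macrophage set such as Nlrp3, Icam1, Il10ra and Ebi3, and in BMDM the called genes lie between -0.89 and 0.67.

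Over the 12 libraries, the tested genes whose log2 CPM most resembled each cytokine were Cd300lf and Alox5 for Tnf (Pearson r = 0.995 and 0.994), Qpct and Rgs1 for Il1rn (0.995 and 0.994), Matk and Hist1h2bc for Il15, Lpar5 and Sirpb1c for Osm, and Capn2 and Alg8 for Il10. Likewise they were Gabrd and Fpr2 for Il1b, Nova2 and Rbms3 for Lif, Nifk and Mpc2 for Il18, and 2610020H08Rik and Gm13238 for Il1a. These correlations, from 0.903 for Gm13238 to 0.999 for Lpar5, are descriptions, since all points share the same 12 libraries and most of the variance lies between both cell types.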

How the data were processed

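Per the labels and the study's methods, poly(A) RNA was sequenced as single reads and the authors deposited estimated counts per gene, made with kallisto (version not given in the sources used here) on GRCm38. They are whole numbers, not normalized and not filtered. The numbers of all 12 libraries were used as deposited, and 0 columns were left unmapped. In edgeR 4.0.16, 14285 genes passed filterByExpr and 18259 were left out, TMM factors were computed, and quasi-likelihood tests were run on all 12 libraries in 4 groups, two-sided, and p-values were adjusted over all tested genes by Benjamini-Hochberg. The threshold was an adjusted p of 0.05. CPM are counts scaled to TMM-adjusted library sizes, while summed marker levels and shares of BMDM levels use plain library totals. Intervals of count ratios and floors (3 counts) cover counting error only, and intervals of log2 fold changes come from the spread between libraries.

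Alternatives were DESeq2 1.42.0 (size factors, Wald test), limma-voom (limma 3.58.1), other filters, only the 6 libraries compared, a replicate block, each library left out, and subtraction of a macrophage share. On simulated counts over 14103 genes in which 200 were changed, the fit of the BMDM comparison found 96 of 100 at a log2 change of 1 and 66 of 100 at 0.5, with 16 false among 178 calls. Positions come from GENCODE M21 and promoters from RefSeq, both on GRCm38.

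The cytokines and the gene lists were chosen with earlier results of these data known. Named from the lists were the called genes with the largest changes, at most 3 per list, comparison and direction, and for each tested cytokine the 2 genes with the highest correlation. 1 gene that this rule would name is not reported here. All replicate pairs differed by more than sampling noise (chi-square over genes with at least 20 counts in the pair). Same-numbered replicates did not deviate together (correlations -0.082 to 0.042).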

Additional observations from a re-analysis of the deposited data

Results flagged for a closer look

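Il1rn and Tnf drew attention because their effects under the PHD2cko label differed between both cell systems by a test of the difference. In the 3T3 libraries of PHD2cko medium, 26 of 27 macrophage markers were also called higher. The difference can therefore not be assigned to a response of the 3T3 cells. The 3T3 effect less the BMDM effect was 3.95 on the log2 scale for Il1rn. For Tnf the fitted difference was 7.99, a value that depends on the prior count because 3T3 cells in WT medium had 0 counts, and that is no bound. Groups of 3 libraries were not screened for outlying samples.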

How the results depend on the processing

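In BMDM, the number of cytokines called (0 in the fit of all libraries) was 1 with the DESeq2 Wald test and with limma-voom and 3 with only the 6 libraries compared. That last fit also gave 2534 called genes of 12282 against 961 of 14285, and leaving out 1 library gave 527 to 664. In 3T3 cells, the number of cytokines called (2) was 0 with at least 10 counts in every library and 0 with only the 6 libraries compared, because Tnf and Il1rn then failed the filter, and it was 2 to 3 when 1 library was left out. Called genes numbered 912 with only those 6 libraries against 2240, and 1260 to 2757 with 1 library left out, the lowest without replicates 1 (1319) and 3 (1260) of PHD2cko medium. In the test of the difference, 0 cytokines were called with at least 10 counts in every library and 3 by the DESeq2 Wald test, which added Osm (adjusted p = 0.0371). Leaving out 1 library gave 2 to 3, with Osm called by edgeR without replicate 2 of PHD2cko medium (adjusted p = 0.0354). Between cell types, 2 were called with at least 10 counts in every library, and leaving out 1 library gave 8 to 9, Il1a being lost. Leaving out 1 library turned the sign of log2 fold changes that were not called: in BMDM, Il1a (-0.10 to 1.498) and Osm (-0.0064 to 0.14), and in 3T3 cells Il1a (-0.019 to 2.22), Il18 (-0.15 to 0.018), Il15 (-0.20 to 0.11) and Lif (-0.048 to 0.10). With the replicate number as a block, 0 cytokines were called in BMDM, 2 in 3T3 cells, 2 in the test of the difference and 9 between cell types, and the numbers did not pair the libraries. The cause of the other changes was not tested. With 0 to 6 counts per library, Osm, Il1b and Il10 in 3T3 cells could show only large differences.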
